A study of Mus musculus with 24 samples.

Results

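Igf1, Ccn4 and Ecrg4 encode secreted proteins, and their RNA was followed in mouse P19 cells differentiating under retinoids. The 3 genes were taken by exact symbol from 23 deposited tables of differentially expressed genes, which together name 1753 genes. They were selected on the log2 fold changes in those same tables, so the values below describe them and test nothing. P19 is an embryonal carcinoma line, a tumour-derived stem cell that turns into neurons and other cell types when given retinoic acid. All cells were wild-type (WT) or lacked 1 retinoic acid receptor (RAR): Rara(-/-), Rarb(-/-) and Rarg(-/-) lines had been made with CRISPR/Cas9 and a puromycin resistance cassette.

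Cells received a ligand for 4 d and were then kept for 6 d in Neurobasal medium, which all libraries of day 10 share. The ligands were all-trans retinoic acid (ATRA, 1 µM), which activates every RAR, the RARα agonist BMS753 (1 µM), the RARβ agonist BMS641 (0.1 µM), the RARγ agonist BMS961 (0.1 µM), the combination of BMS641 and BMS961, or the vehicle ethanol (EtOH). WT cells were sampled at days 2, 4 and 10 with ATRA, BMS753, the combination or EtOH, and at day 10 with BMS961. The mutant lines were sampled at day 10: Rara(-/-) with ATRA, BMS961 or the combination, Rarb(-/-) with ATRA, BMS753, BMS961 or the combination, and Rarg(-/-) with ATRA, BMS753, BMS641 or the combination. Each of the 24 conditions has 1 library, so no difference has a replicate check. No EtOH library of a mutant line was analysed here, and a mutant value therefore carries both the line and the ligand.

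Every table sets 1 library against the WT EtOH library of day 2. It gives the log2 fold change and an unadjusted p-value for the genes with p under 0.01, and a gene outside this limit has no value. A gene was counted as up-regulated when its log2 fold change was over 2, which is 4-fold. The tables hold 57 to 546 genes each. Rara, Rarb and Rarg are each listed in 0 of the 23 tables, so the loss of the receptors could not be checked from these values. Of the 12 embryonal carcinoma markers examined, 8 were down-regulated in at least 1 table and 0 were up-regulated. Of all 1753 listed genes, 34.6% were down-regulated and 64.9% up-regulated in at least 1 table. At day 10, 8 of the markers were down-regulated in WT ATRA and 3 in WT EtOH, so part of the fall was also seen without a retinoid. Pou5f1, the pluripotency factor Oct4, had a log2 fold change of -9.88 in WT ATRA at day 10. In RNA of whole cultures, fewer cells of a type and less RNA per cell cannot be told apart.

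IGF1 (insulin-like growth factor 1) binds the IGF1 receptor and promotes growth and survival, also of neurons, and binding proteins of the IGFBP family hold it in the extracellular space. CCN4, formerly WISP1, is a matricellular protein of the CCN family and is known as a product of a Wnt target gene in connective tissue. ECRG4 (augurin) is a secreted precursor peptide known from the choroid plexus and from studies of cell cycle arrest. Retinoids act through RARs, which bind DNA with RXR at pairs of short half-sites.

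In the mm9 annotation, Igf1 (ENSMUSG00000020053) lies at chr10:87321010-87399792 on the plus strand with 9 annotated transcripts of 4 to 5 exons. Its 5′ end is overlapped by the antisense processed transcript Gm16176, which no table lists. The strand setting of the read counting is not given in the sources used here, so reads of both genes may not be separable. Ccn4 is annotated there under its older name Wisp1 (ENSMUSG00000005124) at chr15:66722882-66754763 on the plus strand. Ecrg4 is annotated as 1500015O10Rik (ENSMUSG00000026051) at chr1:43787447-43799423 on the plus strand, with 1 transcript of 4 exons.

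Sequences before the RefSeq start sites are shown because the 3 genes were chosen from a retinoid experiment and RAR half-sites can be read from the letters. The 250 bases before the RefSeq start site were searched on both strands for the half-site AGGTCA, for its variant AGTTCA, for the variant GGGTCA and for the variant GGTTCA. Direct repeats of 2 half-sites with 1, 2 or 5 bases between them were searched too. For Ecrg4 the window is chr1:43730352-43730601 on the plus strand of GRCm38.p6, and capitals mark the half-sites.
Ecrg4: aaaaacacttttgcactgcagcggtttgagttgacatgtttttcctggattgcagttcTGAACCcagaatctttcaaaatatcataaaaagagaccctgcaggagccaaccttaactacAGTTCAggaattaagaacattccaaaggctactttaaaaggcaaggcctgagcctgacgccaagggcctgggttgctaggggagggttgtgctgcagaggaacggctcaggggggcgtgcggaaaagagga
TGAACC is GGTTCA read on the opposite strand and lies 192 to 187 bases before the start, and AGTTCA lies 131 to 126 bases before it. The Igf1 window holds 1 half-site, 161 to 156 bases before the start, within chr10:87860938-87860967 on the plus strand of GRCm38.p6. Matched to mm9, this Igf1 window is chr10:87323606-87323855, which lies downstream of the gene start given above, inside 8 of the 9 annotated transcripts and overlapping exons of 2 of them. It is thus upstream of the RefSeq start only, and is exonic in those 2 transcripts.
Igf1: ctcagggaagagAGGTCAgctgcctagagc
Neither window holds a direct repeat of the 3 spacings. Such half-sites are common, since 38.6% of 32851 RefSeq promoters of this length hold at least 1, while 0.164%, 0.174% and 0.0883% hold a direct repeat with 1, 2 and 5 bases between half-sites. The matches are a description of letters and not of binding. The promoter of Ccn4 was not used here.

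The 3 genes were up-regulated under ATRA and BMS753 and, in WT cells, in no table of another treatment. Of 69 possible values (3 genes in 23 tables), 24 are listed, and each of these is up-regulated. Ccn4 was up-regulated in 10 tables, Igf1 in 7 and Ecrg4 in 7, with 0 tables showing any of them down-regulated. All 3 were up-regulated together in 5 tables, exactly 2 in 4 tables, exactly 1 in 1 table and none in 13. The 5 tables with all 3 are the day 10 tables of WT ATRA, WT BMS753, Rarb(-/-) ATRA, Rarb(-/-) BMS753 and Rarg(-/-) ATRA.

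**Figure D1:**
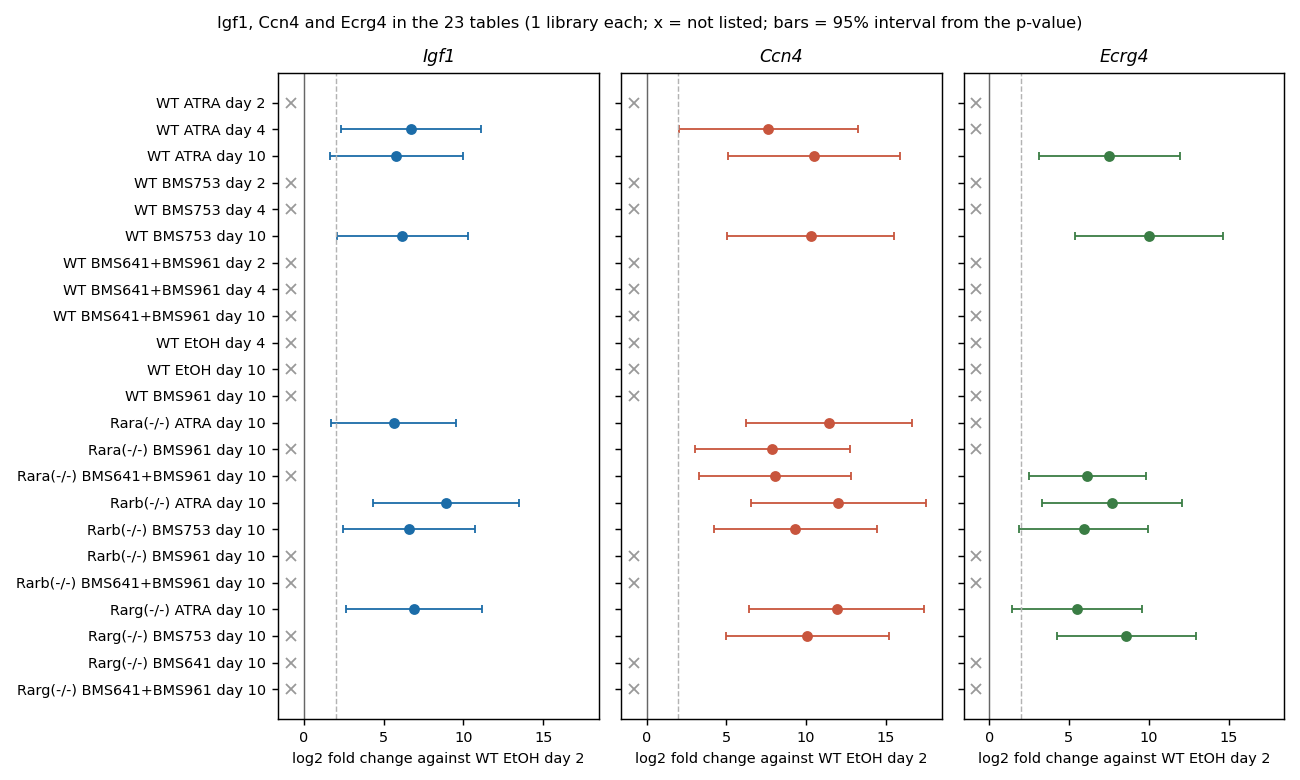
Deposited log2 fold change against WT EtOH day 2 (x axis) of Igf1, Ccn4 and Ecrg4 in each of the 23 tables (rows, 1 library each), with bars for the 95% interval implied by the p-value, a solid line at 0, a dashed line at the up-regulation threshold of 2 and crosses for tables that do not list the gene. Ccn4 has values in 10 rows between 7.63 and 12.02, and Igf1 and Ecrg4 have values in 7 rows each.

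The share of the 1753 genes that were up-regulated in the same table gives the background for these counts, and since the genes were chosen on these contrasts nothing is read from it. It was 5.65% in WT ATRA at day 2, 10.2% at day 4 and 22.5% at day 10. For WT BMS753 it was 6.39%, 8.33% and 21.8% at the same days. For the WT combination it was 3.71%, 2.22% and 9.87%. In WT EtOH it was 1.65% at day 4 and 9.53% at day 10, and in WT BMS961 at day 10 it was 8.16%. In Rara(-/-) cells it was 19% with ATRA, 10.9% with BMS961 and 16.8% with the combination. In Rarb(-/-) cells it was 20.5% with ATRA, 22.3% with BMS753, 7.02% with BMS961 and 8.27% with the combination. In Rarg(-/-) cells it was 21.4% with ATRA, 19.9% with BMS753, 8.5% with BMS641 and 8.61% with the combination. The tables with the most up-regulated genes are thus those of ATRA and BMS753 at day 10. These also list the 3 genes, except Ecrg4 in Rara(-/-) ATRA and Igf1 in Rarg(-/-) BMS753.

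Igf1, the growth factor, was listed early in ATRA-treated WT cells. Its log2 fold change was 6.70 (SE 2.23, 95% interval 2.33 to 11.07, p = 0.00266, the authors' unadjusted DESeq2 value) in WT ATRA at day 4 and 5.78 (SE 2.13, 1.61 to 9.94) at day 10. WT BMS753 gave 6.18 (95% interval 2.07 to 10.29) at day 10 and no listed value at days 2 and 4. The interval of each of these values spans several log2 units, and they overlap almost fully. In the mutant lines at day 10 the log2 fold change of Igf1 with ATRA was 5.63 (SE 2.00) in Rara(-/-), 8.93 (SE 2.33, 4.36 to 13.50) in Rarb(-/-) and 6.90 (SE 2.18) in Rarg(-/-) cells. With BMS753 it was 6.57 (SE 2.11) in Rarb(-/-) cells, and Rarg(-/-) cells did not list it. Rarb(-/-) ATRA stands highest of the 7 values, and the other 6 lie between 5.63 and 6.90.

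Ccn4, the matricellular protein, had the highest listed value of the 3 genes in all 10 tables that list it. In 1 of them, Rara(-/-) BMS961, it was the only one of the 3 listed. In WT ATRA its log2 fold change was 7.63 (SE 2.87, 2.02 to 13.25) at day 4 and 10.50 (SE 2.74, 5.14 to 15.87) at day 10. It was 10.30 (SE 2.67) in WT BMS753 at day 10, with no listed value at days 2 and 4. Both day 10 values in WT cells correspond to a large excess over the WT EtOH library of day 2 (1449-fold and 1260-fold), with intervals that cover orders of magnitude. Whether that library had any read of Ccn4 is not given in the tables. In Rara(-/-) cells it was 11.43 (SE 2.66) with ATRA, 7.89 (SE 2.47) with BMS961 and 8.07 (SE 2.43) with the combination. Rarb(-/-) cells gave 12.02 (SE 2.79) with ATRA and 9.32 (SE 2.61) with BMS753. Rarg(-/-) cells gave 11.92 (SE 2.79) with ATRA and 10.08 (SE 2.60) with BMS753. The ATRA values at day 10 thus lie between 10.50 and 12.02 in all 4 lines, and the lowest day 10 values are those of Rara(-/-) cells with BMS961 and with the combination.

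Ecrg4, the precursor peptide, was listed only at day 10. Its log2 fold change in WT cells was 7.53 (SE 2.26) with ATRA and 9.99 (SE 2.37, 5.35 to 14.64) with BMS753. It was not listed with ATRA in Rara(-/-) cells, where the combination gave 6.14 (SE 1.87). Ecrg4 is the only one of the 3 genes with a value in this combination table and none in the ATRA table of the same line. In Rarb(-/-) cells it was 7.68 (SE 2.24) with ATRA and 5.91 (SE 2.07) with BMS753. In Rarg(-/-) cells it was 5.51 (SE 2.08, p = 0.00815, the authors' unadjusted DESeq2 value) with ATRA and 8.60 (SE 2.21) with BMS753. BMS753 was thus above ATRA in WT and Rarg(-/-) cells and below it in Rarb(-/-) cells. None of the 3 genes was listed in WT cells with EtOH, BMS961 or the combination at any day sampled, in Rarb(-/-) cells with BMS961 or the combination, or in Rarg(-/-) cells with BMS641 or the combination.

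Over the day 10 tables that list them, the log2 fold change was 6.38 at the median (range 5.63 to 8.93, SD 1.21, n = 6) for Igf1. For Ccn4 it was 10.30 (7.89 to 12.02, SD 1.52, n = 9), and for Ecrg4 7.53 (5.51 to 9.99, SD 1.61, n = 7). These spreads run over different lines and ligands and leave out every table without a value. The WT EtOH library of day 2 is common to all tables, so its error does not enter the spread between them. For that reason, and because values short of the p-value limit are missing, the spread is no measure of agreement between tables. It is smaller than the lowest SE of a single value, 2.00 for Igf1, 2.43 for Ccn4 and 1.87 for Ecrg4. With those lowest errors, a value had to reach 5.15 for Igf1, 6.26 for Ccn4 and 4.81 for Ecrg4 to pass the p-value limit. The error of these genes in a table that does not list them is unknown, so no limit can be set there, and no listed value does not mean that a change was absent.

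Among the up-regulated genes of each table, Ccn4 ranked near the top and Igf1 mostly below the middle. Ccn4 was above the table's median of up-regulated genes in all 10 tables, Ecrg4 in 5 of 7 and Igf1 in 1 of 7. Ccn4 was first of 375 up-regulated genes in Rarg(-/-) ATRA (rank 1), rank 2 of 333 in Rara(-/-) ATRA and rank 3 of 359 in Rarb(-/-) ATRA. Its lowest rank was 78 of 179 in WT ATRA at day 4. Igf1 reached rank 57 of 359 in Rarb(-/-) ATRA and stood at rank 309 of 395 in WT ATRA at day 10. Ecrg4 ran from rank 10 of 383 in WT BMS753 to rank 298 of 375 in Rarg(-/-) ATRA. These ranks compare fold changes and not levels, because the tables give no expression level.

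**Figure D2:**
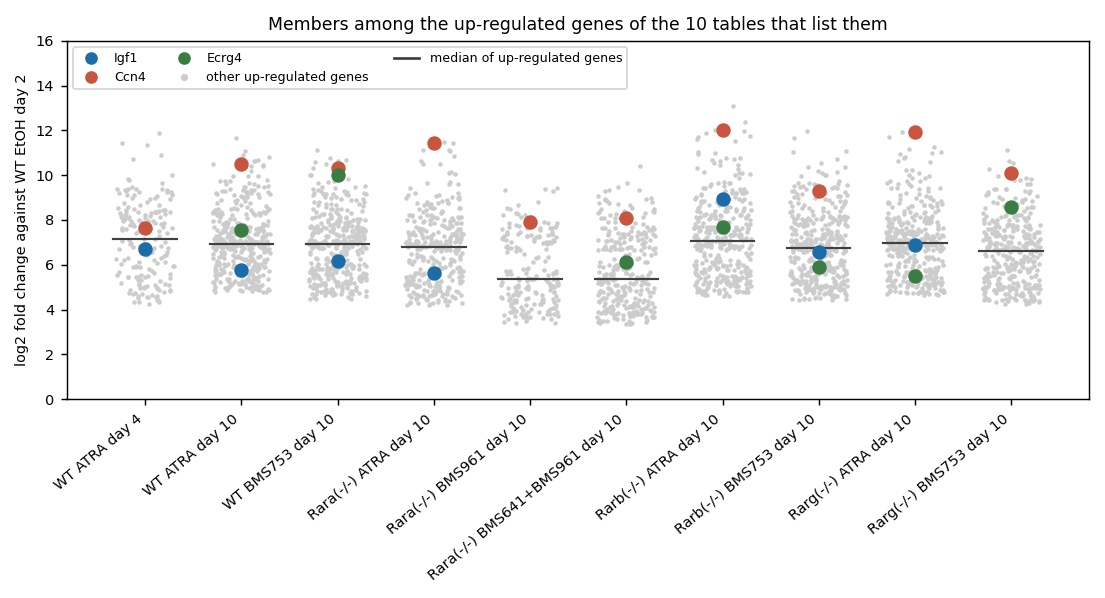
Log2 fold change against WT EtOH day 2 (y axis) of Igf1 (blue), Ccn4 (red) and Ecrg4 (green) among all up-regulated genes (grey points, spread sideways at random) of the 10 tables that list any of the 3 (x axis), with a bar at the median of the up-regulated genes. Ccn4 is above the bar in all 10 tables and the highest point of the Rarg(-/-) ATRA table.

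The design sets lines against each other with the same ligand, and BMS753 against ATRA at the same dose in the same line. Of 54 possible differences in 18 pairs of tables, 24 could be computed because both tables list the gene. All tables share the reference library, so a difference compares 1 library with another, and its SE is at most the root of the summed squares of both. None of the 24 intervals excludes 0 (0 of 24), and 2 differences exceed their largest possible SE, by at most 1.30 times.

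Between lines, the largest difference was in Ecrg4 with BMS753, which was lower in Rarb(-/-) than in WT cells, at -4.08 log2 units (SE at most 3.15, 95% interval -10.25 to 2.08). Ecrg4 in Rarg(-/-) against WT cells was -1.40 with BMS753 and -2.03 with ATRA. With ATRA, the Igf1 difference from WT was 3.15 (SE at most 3.16) in Rarb(-/-), 1.12 in Rarg(-/-) and -0.15 in Rara(-/-) cells. None of these separates a mutant line from WT cells. For Ccn4 with ATRA, the difference from WT was 0.93 in Rara(-/-), 1.52 in Rarb(-/-) and 1.42 in Rarg(-/-) cells, each smaller than 1 SE. The 3 differences subtract the same WT ATRA library, so their common sign is not 3 separate observations. With BMS753 the Ccn4 difference was -0.98 in Rarb(-/-) and -0.22 in Rarg(-/-) cells.

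BMS753 minus ATRA, both at 1 µM and day 10, gave for Ecrg4 2.46 in WT, -1.76 in Rarb(-/-) and 3.09 (SE at most 3.04, 95% interval -2.87 to 9.04) in Rarg(-/-) cells. Ccn4 gave -0.20 in WT, -2.70 in Rarb(-/-) and -1.84 in Rarg(-/-) cells. For Igf1 the difference was 0.40 in WT and -2.36 in Rarb(-/-) cells, with no value in Rarg(-/-) BMS753. The pan-RAR and RARα ligands were thus not told apart by any of the 3 genes, with intervals that leave room for differences of more than 5 log2 units. Adding BMS641 to BMS961 in Rara(-/-) cells changed the Ccn4 value by 0.18 (SE at most 3.47). In that line Ecrg4 was listed with the combination and not with BMS961, and Igf1 with neither. ATRA and the combination were given at different doses and are set side by side only: in Rara(-/-) cells Ccn4 was 11.43 with ATRA and 8.07 with the combination. Over time in WT ATRA, day 10 minus day 4 was -0.92 for Igf1 and 2.87 (SE at most 3.96) for Ccn4.

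**Figure D3:**
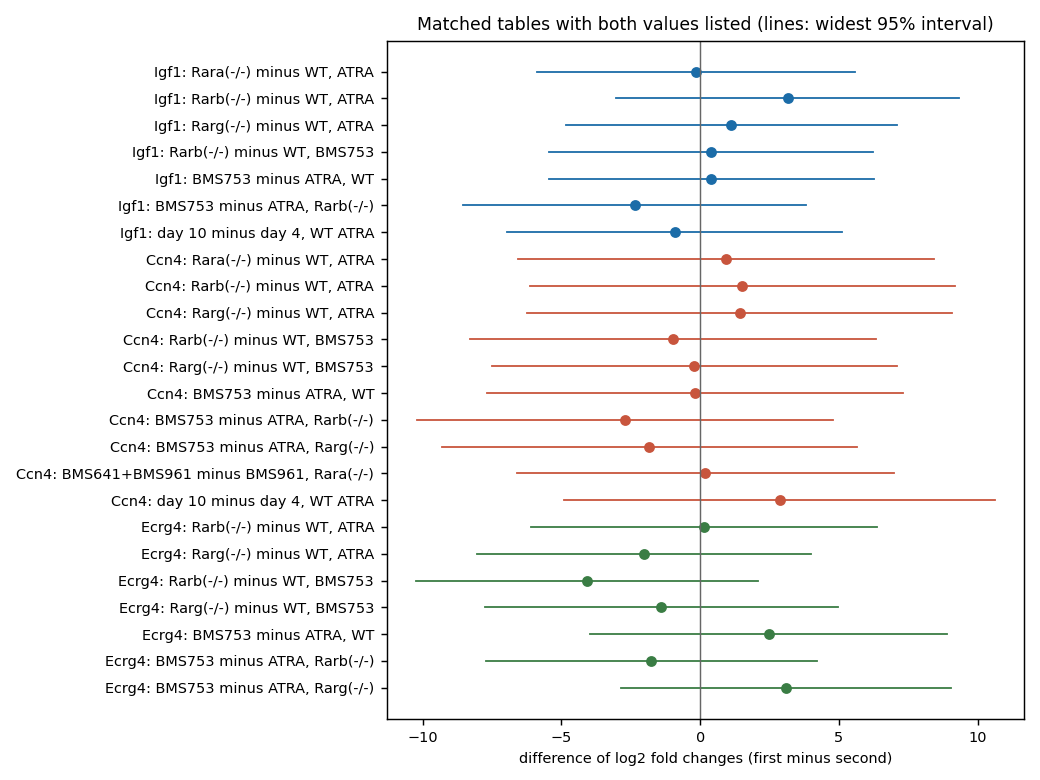
Difference of the log2 fold changes (x axis) for the 24 pairs in which both tables list the gene, 1 row per pair named first minus second, with lines for the widest possible 95% interval and a vertical line at 0. All 24 intervals cross 0, and the point farthest from 0 is Ecrg4 in Rarb(-/-) minus WT with BMS753 at -4.08.

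Of the rest of the IGF axis (25 other genes for ligands, receptors, binding proteins, proteases and adaptors), 8 were up-regulated in at least 1 table, 3 were down-regulated and 14 were listed in none. Of the 11 that were listed, 8 were thus up-regulated, and of all 1753 listed genes 64.9% were up-regulated and 34.6% down-regulated in at least 1 table. Among the ligands, Igf2 was up-regulated in 9 tables, 8 of them at day 10, with log2 fold changes of 4.95 in WT ATRA and 5.05 in WT BMS753. Its values in the ATRA tables of the 3 mutant lines were 6.06 each and differed by at most 1.45e-07, while their p-values differed. How 3 libraries came to the same value was not tested, and these 3 values may not be separate measurements. Like Ecrg4, and unlike Igf1, Igf2 was up-regulated in Rara(-/-) cells with the combination, at 3.35. Of the receptors, Igf2r, which clears IGF2, was listed in 3 tables with values from 6.00 to 7.40.

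The binding proteins Igfbp5 and Igfbp4 were listed in more tables than Igf1. Igfbp5 was up-regulated in 18 tables and in all 16 day 10 tables, at 5.33 in WT EtOH, 8.24 in WT ATRA and 9.51 in Rarg(-/-) ATRA. Igfbp4 was up-regulated in 8 tables and was one of the 5 genes most like Igf1, with 4.52 in WT ATRA at day 4, 4.94 at day 10 and 6.43 in Rarb(-/-) ATRA. Igfbp4 thus shares with Igf1 its highest value in Rarb(-/-) ATRA. Pappa, a protease that cleaves IGFBP4, was up-regulated in 8 tables, with 6.48 in Rara(-/-) ATRA and no value in WT cells at day 10. Igfbpl1 and Stc1 were up-regulated in 2 tables each and Irs3 in 1 table, WT BMS753 at day 2, at 7.11. The down-regulated genes were the adaptor Irs4 in 5 tables, the protease Htra1 in 3 and the adaptor Grb10 in 2. Irs4 was also down-regulated in WT EtOH at day 10, at -3.60.

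Of the 5 other CCN genes, 4 were listed in no table and Ccn1, a matricellular protein, was listed in 1. Its log2 fold change was -1.47 in WT EtOH at day 4, short of the threshold. Ccn4 is the only CCN gene with an up-regulated value in these tables.

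**Figure D4:**
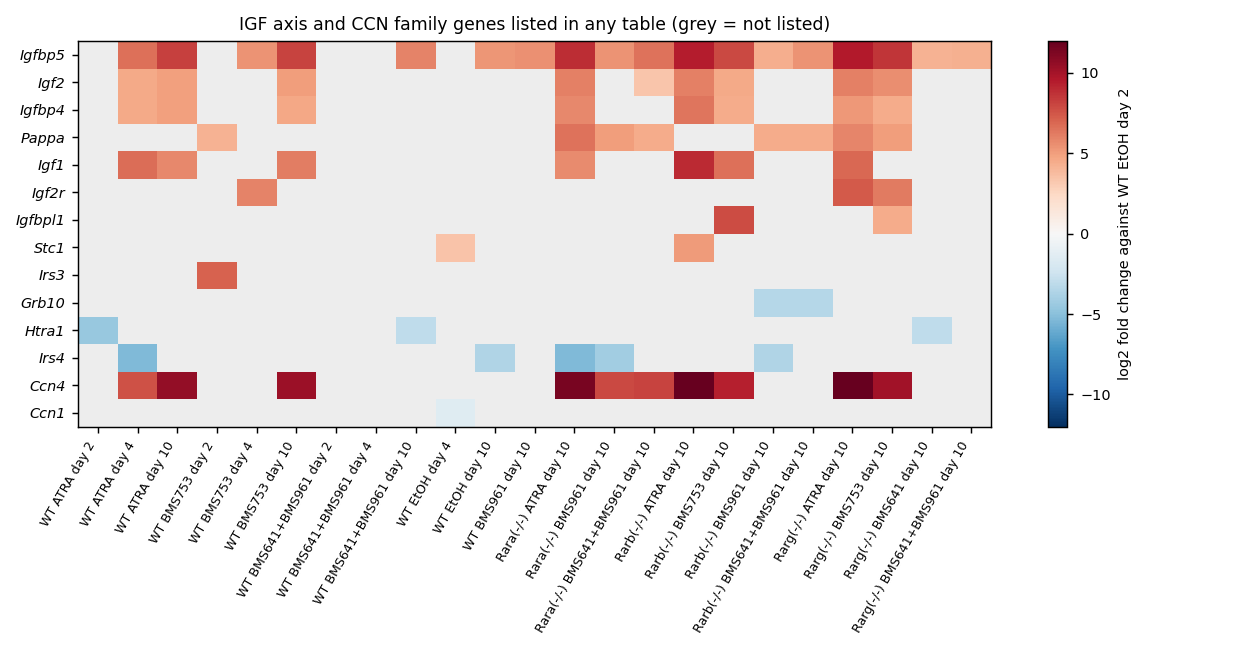
Log2 fold change against WT EtOH day 2 (colour, red up and blue down) of every IGF axis and CCN family gene listed in any table (rows) across the 23 tables (columns), with grey for not listed. Igfbp5 is coloured in all 16 day 10 columns, whereas Igf1 and Ccn4 are grey in every WT column of EtOH, BMS961 and the combination.

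The likeness of other genes to each of the 3 was measured by the Jaccard index, the number of tables in which both genes are up-regulated over the number in which either is, across 23 tables and 1752 other genes. For Igf1 the most like was Hoxc9, a posterior Hox transcription factor, with an index of 1. It was followed by Mira, Hoxb7 and Igfbp4 (0.875 each) and Col6a2, a collagen VI chain (0.857). Hoxc9 was 6.82 in WT ATRA at day 10 and 8.11 at day 4, and differed from Igf1 by 1.27 log2 units on average over the 7 shared tables. For Ccn4, 6 genes had an index of 1, and the 5 with the smallest differences were Nrp1, a semaphorin and VEGF co-receptor, Nrxn3, a presynaptic adhesion protein, the transcription factor Nfib, Pid1 and the ephrin receptor Epha3. Their values differed from those of Ccn4 by 3.32 to 4.04 log2 units on average, with Nrp1 at 6.95 in WT ATRA at day 10. For Ecrg4 the 5 most like, all at 0.875, were 2700069I18Rik, the mesenchymal homeobox factor Prrx1, the collagen receptor Ddr2, Golga7b and Ttc9b. Golga7b was 10.62 and Prrx1 5.85 in WT ATRA at day 10. An index over 0.5 was reached by 168 genes for Igf1, 206 for Ccn4 and 196 for Ecrg4, so many genes share these tables. Among themselves the 3 were less alike than these: Igf1 and Ccn4 shared 7 of 10 tables (0.7), Ccn4 and Ecrg4 7 of 10 (0.7), and Igf1 and Ecrg4 5 of 9 (0.556). The 7 tables of Igf1 and the 7 of Ecrg4 are all among the 10 of Ccn4.

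More mesenchyme and neuron markers were up-regulated in the day 10 tables with any of the 3 genes, and their part in these values was not tested. At day 10 the 9 tables that list any of the 3 had 4 to 14 of 16 fibroblast or mesenchyme markers up-regulated (median 11), and the 7 tables that list none had 0 to 2 (median 1). Neuron markers were up-regulated at 2 to 9 of 15 (median 6) against 0 to 3 (median 0). Both lists are thus higher in the tables with the 3 genes. So is the share of all 1753 listed genes that were up-regulated, at 10.9% to 22.5% against 7.02% to 9.87%. In at least 1 table, all 14 listed mesenchyme and all 10 listed neuron markers were up-regulated, beside 64.9% of all listed genes. Mesenchyme markers stood at 13 in Rara(-/-) ATRA, 13 in Rarb(-/-) ATRA and 14 in Rarg(-/-) ATRA, where neuron markers stood at 4, 2 and 7. The 2 lists were closer elsewhere, with 11 mesenchyme and 8 neuron markers in WT ATRA and 11 and 6 in WT BMS753. They stood at 9 and 9 in Rarb(-/-) BMS753 and 10 and 6 in Rarg(-/-) BMS753. In Rara(-/-) cells they stood at 4 and 4 with BMS961 and 7 and 5 with the combination. Col3a1, a fibrillar collagen chain, was 10.19 in WT ATRA and 11.90 in Rarb(-/-) ATRA. Pdgfra, a receptor counted here as a mesenchyme marker, was 9.04 and 13.09. Pdgfra was up-regulated in 13 day 10 tables, also in some that list none of the 3 genes. There it was 7.37 in Rarb(-/-) BMS961, 7.03 in the Rarb(-/-) combination, 7.21 in Rarg(-/-) BMS641 and 6.97 in the Rarg(-/-) combination. In Rarb(-/-) ATRA, Igf1 and Ccn4 also had their highest values, while Ecrg4 had its highest, 9.99, in WT BMS753. Slc17a6, a vesicular glutamate transporter, was 9.80 in WT ATRA and 7.93 in Rarb(-/-) ATRA.

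Markers of 2 other cell types known for these factors were mostly not among the up-regulated genes. Of 10 choroid plexus markers, a tissue known for Ecrg4, 0 to 1 were up-regulated in each day 10 table, and 0 to 3 were down-regulated in the tables that list any of the 3 genes against 0 to 1 in the others. In at least 1 of the 23 tables, 2 of the 10 were up-regulated and 4 down-regulated, beside 64.9% and 34.6% of all 1753 listed genes. Lmx1a was up-regulated in 3 day 10 tables, at 5.35 in WT BMS753, and Ttr in 1, at 7.64 in Rara(-/-) BMS961. Otx2, a homeobox factor of the choroid plexus and also of early embryonic cells, was down-regulated in 5 day 10 tables. Of 10 microglia or macrophage markers, cells known for Igf1, 1 was listed, Tmem119, at 5.29 in Rarb(-/-) ATRA. The tables that list the 3 genes also hold more genes in all, with 191 to 395 up-regulated genes at day 10 against 123 to 173 in the other 7. Their smallest positive log2 fold changes were higher too, at 3.35 to 4.77 against 2.71 to 3.02. The median SE of a table's values was also higher, at 1.65 to 2.22 against 1.48 to 1.64. The SE thus differs along with the counts, and its part was not tested.

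**Figure D5:**
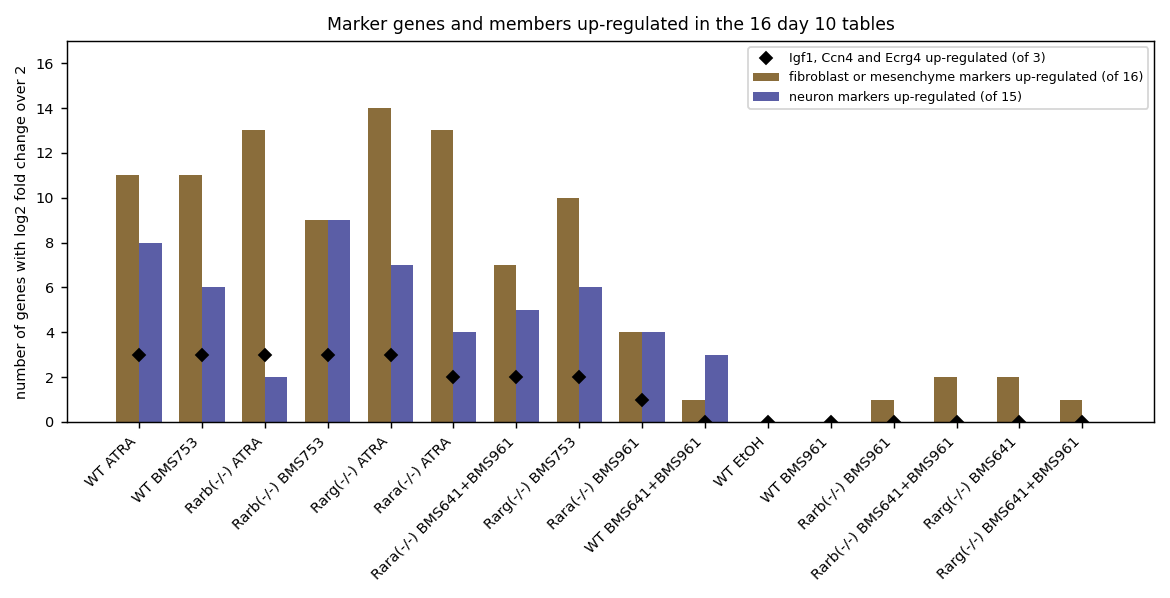
Number of fibroblast or mesenchyme markers (brown bars, of 16) and neuron markers (blue bars, of 15) with a log2 fold change over 2 (y axis) in each of the 16 day 10 tables (x axis), with diamonds for how many of Igf1, Ccn4 and Ecrg4 are up-regulated. The 9 tables with a diamond above 0 have 4 or more mesenchyme markers, and the 7 with a diamond at 0 have 2 or fewer.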

How the data were processed

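Poly(A) RNA of 24 P19 samples was sequenced, 1 library per condition. The authors mapped reads to mm9 with Bowtie (Bowtie2 2.1.0 in the submitters' processing notes), counted them per gene with featureCounts and compared samples with DESeq2. For each sample against WT EtOH at day 2, the authors deposited a log2 fold change and an unadjusted p-value per gene. In the deposited table of WT ATRA at day 2 a standard error stands beside them, used as a score in log2 units. No other measurement was used. Read counts were not analysed here, so depth is unknown and no counting interval is given.

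The standard error of each value is the one that a two-sided normal (Wald) test implies from its p-value. In the table with a deposited error the largest relative difference was 4.27e-08 among 144 genes. Intervals are 95% and cover the model error of 1 library against 1, with no replicate. The unadjusted p-values are those the authors obtained with DESeq2, and no further test was run, because there are no replicates and the 3 genes were chosen on these values. The 3 genes and the gene lists were chosen with earlier results of these data known. Genes named are the 3 with all values, the 5 most like each (ties by smaller difference), every listed gene of the IGF axis and CCN family, and up to 8 or 4 genes of the other lists up-regulated, or else down-regulated, in most day 10 tables; Pou5f1 follows this rule. Counting was tested on simulated data of 1753 genes, in which 200 of 200 changed genes were recovered and 0 unchanged ones called. This checks the code only, and recovery of values close to the p-value limit was not tested. Annotation was matched on mm9, and promoters are RefSeq sequences of GRCm38.p6, matched for 2 of the 3 genes. Alternatives were other thresholds, a stricter p-value, leaving out genes up-regulated in ethanol, and other measures of likeness. Scripts ran in Python 3.11.15 with scipy 1.17.1, numpy 2.4.6, pandas 2.3.3 and, for plots, matplotlib 3.10.9.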

Additional observations from a re-analysis of the deposited data

How the results depend on the processing

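Of 50 values recomputed under another setting, 37 moved by less than 1.5 times and 13 by more. Log2 thresholds of 1, 3 and 5 could not move the counts of the 3 genes, whose lowest listed value was 5.51. Thresholds of 1 and 3 could not move the list counts in WT ATRA at day 10, where the smallest positive value was 4.77. Many of the 37 were thus fixed in advance, and their number does not measure robustness. With p-values under 0.001 only, Igf1 was up-regulated in 1 table, Ccn4 in 8, Ecrg4 in 5 and all 3 genes together in 1. Under that limit 11 differences between matched tables could be computed. Without genes up-regulated in ethanol, the Wnt list had 2 and the other secreted ligands 6 up-regulated genes in WT ATRA at day 10. Of the 5 genes most like Igf1, 3 were kept with Spearman correlation, 4 with Euclidean distance and 2 with the day 10 tables only. For Ccn4, 2 were kept with Spearman correlation, 0 with Euclidean distance and 0 with the day 10 tables only. For Ecrg4, 2 were kept with Spearman correlation, 2 with Euclidean distance and 1 with the day 10 tables only. Which genes are most like each of the 3 thus rests on the measure. No paired analysis was possible because each condition has 1 library. For the same reason no replicate could be left out, and depth is unknown.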

Other observations

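Ligands of other families were up-regulated in the same cultures, some of them also in ethanol. Of 75 other secreted ligands, 29 were listed, 21 of them up-regulated in at least 1 table and 8 down-regulated, beside 64.9% and 34.6% of all 1753 listed genes. Bmp4, a morphogen of the BMP family, was up-regulated in all 16 day 10 tables, at 6.68 in WT EtOH and 5.36 in WT ATRA. Bmp2 and the activin subunit Inhbb were up-regulated in 12 day 10 tables each. Ptn, a heparin-binding growth factor, was up-regulated in 11, and in all 9 tables that list Igf1, Ccn4 or Ecrg4 at day 10. The stem cell ligand Fgf4 was down-regulated in 13 day 10 tables, Fgf15 in 13, and the Nodal antagonists Lefty1 and Lefty2 in 9 each.

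Of 57 Wnt pathway genes, 21 were listed, 20 of them up-regulated in at least 1 table and 1 (Tcf7) down-regulated. Of all 1753 listed genes, 64.9% were up-regulated and 34.6% down-regulated in at least 1 table. Up-regulated was Sp5, a Wnt target gene, in 12 day 10 tables, at 8.43 in WT EtOH and 7.47 in WT ATRA. Wnt6 and Wnt10b were up-regulated in 11 day 10 tables each, and Wnt7b in 9. The secreted Wnt inhibitor Wif1 was up-regulated in 7 day 10 tables, all of which list Ccn4. Of the 23 retinoid response genes, 3 to 4 were up-regulated in the day 10 tables that list any of the 3 genes and 0 to 2 in the others, while those tables hold 191 to 395 and 123 to 173 up-regulated genes in all. Of the same list, 14 genes were listed, 13 of them up-regulated and 2 down-regulated in at least 1 table, with Stra6 in both counts. Dhrs3, a retinaldehyde reductase, was down-regulated in 4 day 10 tables, at -8.24 in WT BMS753. The retinol transporter Stra6 was down-regulated in 2 day 10 tables. Earlier, Stra6 was up-regulated, at 5.00 in WT ATRA at day 2 and at 2.31 and 4.76 in WT BMS753 at days 2 and 4. Meis2, a homeobox factor that retinoids are known to induce, was up-regulated in 11 day 10 tables, at 4.98 in WT ATRA.

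Astrocyte markers (of 7) were up-regulated at 0 to 1 per day 10 table with any of the 3 genes and at 0 in the others, and down-regulated at 0 to 1 against 1 to 2. Of the astrocyte markers, Slc1a2 was up-regulated in 4 day 10 tables, at 5.74 in WT ATRA, and S100b in 1. Aldh1l1 was down-regulated in 12 day 10 tables and Gja1 in 2. Smooth muscle or pericyte markers (of 9) were up-regulated at 1 to 2 against 0 to 2, and down-regulated at 0 to 1 against 0. Of 6 endothelial markers, 2 were listed: Kdr, a VEGF receptor, was up-regulated in 5 day 10 tables, and Tek, the angiopoietin receptor, was down-regulated in 11. In at least 1 table, 2 astrocyte, 4 smooth muscle or pericyte and 1 endothelial markers were up-regulated, and 2, 2 and 1 down-regulated. The shares of all 1753 listed genes were 64.9% up-regulated and 34.6% down-regulated. Igf1 is in the list of neuron markers that the study compiled, while Ccn4 and Ecrg4 are in none of its 6 lists.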
